A study of Mus musculus with 6 samples.

Results

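The growth factor cytokines of activated T cells were represented by 8 genes, *Il2*, *Il3*, *Csf1*, *Csf2*, *Il6*, *Lif*, *Osm* and *Il16*. All 8 were found among the 35602 genes of a count table and among the 34714 genes of a further pair of libraries. CD4+ T cells were taken from the spleen of wild-type mice by the labels of replicates 2 and 3, with no genotype given for replicate 1, and with no strain or age given for these libraries. The cells were stimulated with anti-CD3/CD28 antibodies and cultured with MAPK13-inhibitors (the compound MAPK13-IN-1 in the labels), which inhibit the p38 delta kinase (gene *Mapk13*), or with DMSO, the solvent. The dose was 17.1 µM and the stimulation lasted 72 h by the study's methods, while the labels of replicates 2 and 3 place the addition after day 1 of culture. The 3 libraries per group came from 2 library preparations. Replicates 2 and 3 of each group were counted, with library totals of 26874805 and 28487403 reads for DMSO and of 33854760 and 32617702 reads for MAPK13-inhibitors. Replicate 1 of each group was prepared with a stranded kit and was deposited as normalized values, treated here as FPKM, a scale that corrects fragment numbers for the length of each gene and the size of the library. The unit is not named by the submitters and was taken from how the values behave. The depth of that pair is unknown, so its values were given without a test, and levels of the 2 tables were only set side by side because they were normalized separately.

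T cells that meet antigen with costimulation secrete short-range growth factors. IL-2 drives division of the T cells themselves, IL-3, GM-CSF (*Csf2*) and M-CSF (*Csf1*) act on myeloid cells and their precursors, and IL-6, LIF and oncostatin M (*Osm*) signal through receptors that share the gp130 chain. IL-16 differs from these in being made as a precursor that resting T cells already hold and in binding CD4.

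Markers of the labelled cell type were present in every library. The counts of *Cd4* were 7084 and 7497 in DMSO-treated cells and 9477 and 9594 in MAPK13-inhibitors-treated cells, with 117.8 and 145.9 FPKM in the replicate 1 pair. The 7 T cell markers measured (*Cd3e*, *Cd3d*, *Cd3g*, *Cd4*, *Cd5*, *Cd28* and *Lck*), of 9 listed, summed to 1596 and 1618 CPM (relative to each library's total) in the DMSO libraries and to 947 and 1065 CPM with the inhibitor, with *Cd5* the most abundant with DMSO and *Cd4* with the inhibitor. *Trac* and *Trbc2* were not analysed here. Of these 7 genes, 6 were lower with the inhibitor and 0 were higher, beside 32.3% lower and 31.5% higher among all genes tested. Their median log2 fold change was -1.20, and *Cd4* did not pass the test. The replicate 1 pair had 3 of these markers above a log2 ratio of 0 and 4 below. Their median there was -0.086, beside 0.079 over the 11510 genes with at least 1 FPKM.

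Transcripts of other cell types were measured in the same libraries. The 10 B cell markers summed to 1095 and 1069 CPM in the DMSO libraries and to 1375 and 1386 CPM with the inhibitor, with *Pax5* having the most counts over the 4 libraries and none at 0. With the inhibitor this sum was above that of the T cell markers, which leaves it uncertain how pure the CD4+ T cells of the count table were. The study's methods name a kit that isolates them, and the labels of replicates 2 and 3 name no purification. The same markers summed in the replicate 1 pair to 52.3 FPKM in the DMSO library and 36.5 FPKM in the treated library, beside 1024 and 934 FPKM for the T cell markers. Macrophage and monocyte markers (12 genes, *Cd68* the most abundant) summed to 11.8 and 10.6 CPM with DMSO and to 43.8 and 35.3 CPM with the inhibitor, and 4 of them, *Mertk*, *C1qa*, *C1qc* and *Vcam1*, were at 0 in both DMSO libraries. Dendritic cell markers (7 genes, *Zbtb46* the most abundant) summed to 18.4 and 18.6 CPM with DMSO and to 61.9 and 51.1 CPM with the inhibitor, with *Cd209a* at 0 in all 4 libraries. Erythroid markers (6 genes, *Hbb-bs* the most abundant with the inhibitor, with 51 and 47 counts beside 42 and 56 of *Klf1* with DMSO) summed to 6.14 and 6.14 CPM with DMSO and to 76.9 and 55.5 CPM with the inhibitor. Stromal and endothelial markers (6 genes) summed to 41.7 and 39.7 CPM with DMSO and to 83.1 and 77.7 CPM with the inhibitor, with *Pecam1* making up most of each sum. Markers of CD8 T cells, neutrophils, mast cells and basophils, and NK cells summed to at most 11.2 CPM in any of the 4 libraries. The NK cell markers summed to 1.38 and 2.18 CPM with DMSO and to 1.77 and 1.78 CPM with the inhibitor, without a separation of the groups. These NK cell markers summed in the replicate 1 pair to 0.645 FPKM in the DMSO library and 4.403 FPKM in the treated library, and the CD8 T cell markers to 3.49 and 8.39 FPKM. The other sums of the count table moved with the groups, and their part in the cytokine results was not tested.

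Of the 8 growth factor cytokine genes, 6 were lower and 1 was higher in MAPK13-inhibitors-treated cells at an adjusted p-value under 0.05. The test was edgeR's quasi-likelihood test on the counts of 2 libraries per group, with TMM scaling and Benjamini-Hochberg adjustment over the 16269 genes that passed a filter on low counts, and all 8 genes passed that filter. Over all genes tested, 63.8% passed in either direction, 32.3% as lower and 31.5% as higher, so that a change as such was common in these libraries. The median log2 fold change was -1.24 over the 8 genes and 0.012 over all genes tested. Of the 7 T cell markers, the 6 that passed moved in the direction of most cytokine genes, with a median of -1.20 over all 7, and their part in the cytokine levels was not tested. Nothing in the labels says that the replicates came from separate cultures or animals, so the p-values measure only the spread between these libraries. In bulk RNA, fewer cells of a type and less RNA per cell cannot be told apart.

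*Il2* encodes the main autocrine growth factor of T cells and lies at chr3:37120523-37125959 on the minus strand (GRCm38). It was measured at 46.3 and 56.8 CPM (TMM-scaled) in the DMSO libraries and at 11.9 and 17.9 CPM in the MAPK13-inhibitors libraries. Both treated libraries were below both control libraries, and the groups did not overlap. The means were 51.5 ± 7.40 CPM with DMSO and 14.9 ± 4.26 CPM with the inhibitor (SD, n = 2 each). The log2 fold change was -1.80 ± 0.17 (SE), a 3.47-fold lower level (edgeR adjusted p = 6.18e-06), and 530 of the genes tested had a lower log2 fold change. The replicate 1 pair went the other way, from 6.04 FPKM with DMSO to 71.1 FPKM with the inhibitor.

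*Il3* and *Csf2* encode hematopoietic growth factors for myeloid cells whose receptors share a beta chain, and they are neighbours on chromosome 11. *Il3*, at chr11:54265303-54267277 on the minus strand, was counted 98 and 93 times in DMSO-treated cells and 24 and 28 times in MAPK13-inhibitors-treated cells. These counts corresponded to 3.80 and 3.42 CPM with DMSO and to 0.676 and 0.826 CPM with the inhibitor, and the groups did not overlap. *Il3* was 4.79-fold lower with the inhibitor, with a log2 fold change of -2.26 ± 0.26 (SE, edgeR adjusted p = 3.02e-05). *Csf2*, at chr11:54247271-54249667 on the minus strand, was measured at 11.7 and 12.9 CPM with DMSO and at 6.42 and 7.70 CPM with the inhibitor. The treated libraries again lay below both controls, by less than for *Il3*. The log2 fold change of *Csf2* was -0.80 ± 0.14 (SE, edgeR adjusted p = 0.000568), a 1.74-fold lower level, with means of 12.3 ± 0.872 CPM and 7.06 ± 0.904 CPM (SD, n = 2 each). Exons of *Csf2* overlap the antisense gene *Gm12223*, and since strand use in the counting is not given in the sources used here, reads of these genes cannot be told apart. In the replicate 1 pair *Il3* was at 0.289 FPKM in the DMSO library and 8.38 FPKM in the treated library, and *Csf2* at 3.96 and 27.5 FPKM. Both genes were thus higher with the inhibitor in that pair and lower in the count table.

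*Csf1* encodes M-CSF, the growth factor of macrophages, and lies at chr3:107741048-107760469 on the minus strand. It was measured at 14.3 and 15.6 CPM in the DMSO libraries and at 34.2 and 44.4 CPM in the MAPK13-inhibitors libraries. Among the 8 genes it was the only one that passed the test as higher, and its groups did not overlap. The log2 fold change was 1.39 ± 0.13 (SE, edgeR adjusted p = 6.32e-06), a 2.62-fold higher level. The replicate 1 pair had 3.05 FPKM in the DMSO library and 9.61 FPKM in the treated library, the same direction as in the count table. The summed macrophage, dendritic cell and stromal markers given above were also higher with the inhibitor in the count table. Most of the stromal sum came from *Pecam1*. Of the 3 stromal and endothelial markers tested, 1 was higher (*Pecam1*), 1 was lower (*Pdgfrb*) and 1 did not pass. Macrophage and monocyte markers summed in the replicate 1 pair to 3.07 FPKM in the DMSO library and 11.3 FPKM in the treated library, the dendritic cell markers to 3.36 and 14.6 FPKM, and the stromal and endothelial markers to 7.92 and 6.48 FPKM. The part of these in the *Csf1* level was not tested.

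The IL-6 family genes *Il6*, *Lif* and *Osm* were lower with the inhibitor in the count table. *Il6*, which encodes a cytokine of the acute phase and of B cell help and lies at chr5:30013114-30019981 on the plus strand, had 115 and 155 counts with DMSO and 18 and 21 counts with the inhibitor. Both treated libraries, at 0.507 and 0.620 CPM, lay below the controls at 4.46 and 5.70 CPM. Its log2 fold change of -3.17 ± 0.27 (SE, edgeR adjusted p = 3.36e-06) was the largest in size among the 8 genes, an 8.98-fold lower level, and 99 of the genes tested had a lower one. *Il6* was also lower in the replicate 1 pair, at 6.39 FPKM in the DMSO library and 3.79 FPKM in the treated library.

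*Lif* encodes leukemia inhibitory factor, which signals through LIFR and gp130, and lies at chr11:4257557-4272514 on the plus strand. It was measured at 125.5 and 133.8 CPM with DMSO and at 42.8 and 54.9 CPM with the inhibitor. The groups were far apart relative to the spread within them, with means of 129.6 ± 5.83 CPM and 48.8 ± 8.55 CPM (SD, n = 2 each). The log2 fold change was -1.41 ± 0.10 (SE, edgeR adjusted p = 1.20e-06), a 2.66-fold lower level. *Osm*, the neighbouring gene at chr11:4236420-4241026 on the plus strand, encodes oncostatin M and was measured at 14.6 and 16.6 CPM with DMSO and at 7.92 and 6.96 CPM with the inhibitor. Its groups did not overlap either, and the log2 fold change was -1.07 ± 0.13 (SE, edgeR adjusted p = 4.54e-05), a 2.10-fold lower level. The pair had *Lif* at 17.2 FPKM in the DMSO library and 23.9 FPKM in the treated library, and *Osm* at 10.4 and 11.4 FPKM, so that neither was lower there.

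*Il16* lies at chr7:83642825-83745726 on the minus strand and was measured at 128.9 and 133.9 CPM in the DMSO libraries and at 131.4 and 141.7 CPM in the MAPK13-inhibitors libraries. Its groups overlapped. The log2 fold change was 0.056 ± 0.063 (SE) and did not pass the test (edgeR adjusted p = 0.454). With libraries scaled by their totals alone, a setting that moves the median of all genes by 0.13 on the log2 scale, it was 0.18 and passed (adjusted p = 0.0238, with a range of 0.0238 to 0.921 over the alternatives), and without MAPK13-inhibitors replicate 3 it was -0.0066. Exons of *Il16* overlap *Stard5* and *2310044K18Rik* on the opposite strand, whose reads cannot be told apart from it without strand. The replicate 1 pair had 32.7 FPKM in the DMSO library and 23.3 FPKM in the treated library.

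**Figure D1:**
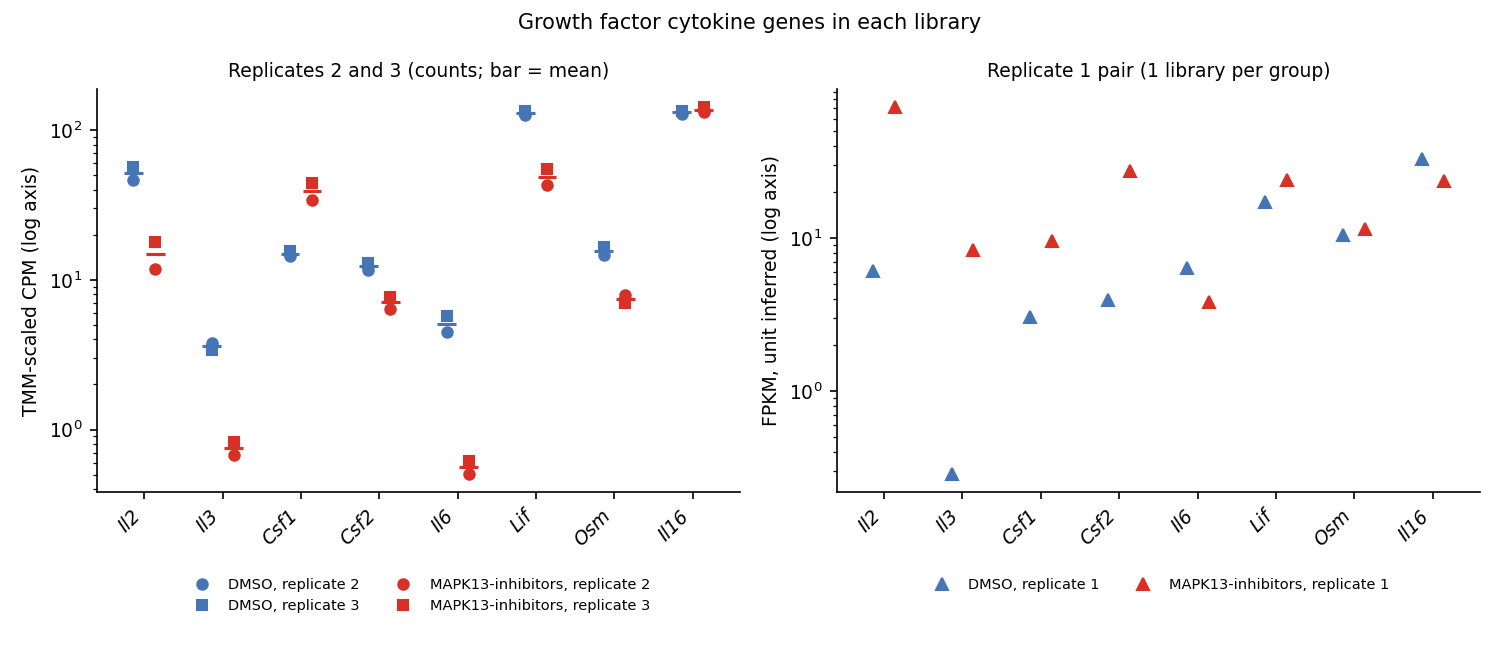
Levels of the 8 growth factor cytokine genes in each library on log axes. The left panel shows TMM-scaled CPM of replicates 2 and 3 with the mean as a bar, and the right panel shows FPKM of the replicate 1 pair. *Il2* lay at 46.3 and 56.8 CPM with DMSO and at 11.9 and 17.9 CPM with the inhibitor on the left, and at 6.04 and 71.1 FPKM on the right.

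In the replicate 1 pair, 6 of the 8 genes had a higher value with the inhibitor and 2, *Il6* and *Il16*, a lower one. Among the 11510 genes with at least 1 FPKM in at least 1 library of the pair, 6515 were above the gene *Crem*, whose log2 ratio was -0.0015. The median log2 ratio, on the scale given next, was 0.92 over the 8 genes and 0.079 over those 11510 genes. On the scale of log2(FPKM + 1), which understates changes of low values, 4 genes (*Il2*, *Il3*, *Csf1* and *Csf2*) had a log2 ratio over 1 and 0 had one under -1. Of all 21936 genes above 0 in at least 1 library of the pair, 3.73% were over 1 and 1.00% under -1. A gene below 1 FPKM in both libraries cannot pass either limit on this scale. Among the 11510 genes with at least 1 FPKM in at least 1 of these libraries, which include all 8 cytokine genes, 7.12% were over 1 and 1.91% under -1, and 12 had a larger ratio than *Il2*, 29 a larger one than *Il3* and 47 a larger one than *Csf2*. Of the 6 cytokine genes that were lower in the count table, 3 had a log2 ratio over 1 in the pair, compared with 4.32% of the 4581 genes that were lower in the count table and had at least 1 FPKM. Of the 7 genes called in the count table, 5 went in the opposite direction in the pair, compared with 33.8% of all 10138 called genes above 0 there. The pair has 1 library per group and no replicate check, and the difference between the library preparations was not tested.

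The order of the cytokine genes by level also differed between the libraries. Per kilobase of merged exons, *Il2* had the highest level of the 8 genes in the DMSO libraries of the count table at 45.1 ± 6.47 CPM per kilobase (SD, n = 2). *Lif* followed at 29.8 ± 1.34, *Il16* at 16.7 ± 0.451 and *Csf2* at 15.4 ± 1.09 CPM per kilobase. *Il6* was the lowest at 2.09 ± 0.361 CPM per kilobase, near *Csf1* at 2.83 ± 0.176. With the inhibitor *Il16* came to the top at 17.4 ± 0.926 CPM per kilobase, followed by *Il2* at 10.4 and 15.6 and *Lif* at 9.83 and 12.6 CPM per kilobase, whose values overlapped. *Il2* accounted for 34.5% and 37.7% of the summed level of the 8 genes in the DMSO libraries and for 18.5% and 22.7% with the inhibitor. In the replicate 1 pair the share of *Il2* in the summed FPKM was 7.54% with DMSO and 39.7% with the inhibitor, and *Il16* was the highest with DMSO. The order depends on the lengths used, since merged exons span all annotated transcripts of a gene, with 7865 bases for *Il16* and 1144 for *Il2*. Before division by length the DMSO means were 131.4 CPM for *Il16* and 51.5 CPM for *Il2*. The lengths behind the FPKM are not known, and their part in the order was not tested.

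The receptors of these cytokines were described as a list of 13 genes, all tested, and *Cd4* among them is also a T cell marker. Of the 13 receptor genes, 6 were lower, 2 were higher and 5 did not pass, with a median log2 fold change of -0.63, beside 32.3% lower and 31.5% higher among all genes tested. The 10 receptor genes with at least 1 FPKM in the replicate 1 pair had a median log2 ratio of -0.014, with 5 above 0 and 5 below. The all-gene median there was 0.079. Of the 7 T cell markers, 6 were lower in the count table, with a median of -1.20, and their part in the receptor levels was not tested. The alpha and beta chains of the IL-2 receptor were high in every library, with *Il2ra* at 963.5 and 963.1 CPM with DMSO and 367.6 and 429.6 CPM with the inhibitor. *Il2rb* was at 1034 and 1067 CPM with DMSO and 466.5 and 542.2 CPM with the inhibitor. Their log2 fold changes were -1.27 ± 0.069 and -1.06 ± 0.068 (SE, edgeR adjusted p = 2.00e-07 and 5.58e-07). *Il2rg*, the common gamma chain, had a log2 fold change of -0.75 ± 0.057 (edgeR adjusted p = 1.76e-06). The ligand-binding chains *Il3ra*, *Csf2ra* and *Il6ra* were lower as well, with log2 fold changes of -1.69 ± 0.13, -1.05 ± 0.11 and -0.69 ± 0.095 (SE).

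The beta chains of the IL-3 and GM-CSF receptors went the other way. *Csf2rb* was measured at 19.5 and 18.8 CPM with DMSO and at 40.2 and 36.3 CPM with the inhibitor, and *Csf2rb2*, the mouse beta chain used by IL-3 alone, at 5.58 and 4.04 CPM and at 10.5 and 8.20 CPM. Both treated libraries lay above both controls for each gene. The log2 fold changes were 1.00 ± 0.093 and 0.96 ± 0.19 (SE, edgeR adjusted p = 6.82e-06 and 0.00129), and reads may be shared between these near-identical paralogs. They were higher in the replicate 1 pair too, at 1.54 and 6.40 FPKM for *Csf2rb* and at 0.397 and 1.96 FPKM for *Csf2rb2*. The summed macrophage and dendritic cell markers given above were higher with the inhibitor in both tables, though not every single marker was. Their part in these levels was not tested.

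*Csf1r*, the M-CSF receptor of macrophages, had 8 and 6 counts with DMSO and 18 and 11 counts with the inhibitor, and did not pass the test. *Lifr* had 19 and 19 counts with DMSO and 38 and 17 counts with the inhibitor, and *Osmr* had 29 and 28 counts and 25 and 23 counts, and neither passed. *Il6st*, which encodes gp130, was at 36.9 and 40.4 CPM with DMSO and at 39.5 and 37.5 CPM with the inhibitor, and its groups overlapped. *Cd4*, the receptor of IL-16, had a log2 fold change of -0.00064 ± 0.054 (SE) and also did not pass. In the replicate 1 pair *Il2ra* had 384.2 FPKM in the DMSO library and 237.3 FPKM in the treated library, while *Il2rb* had 193.8 and 197.8 FPKM.

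**Figure D2:**
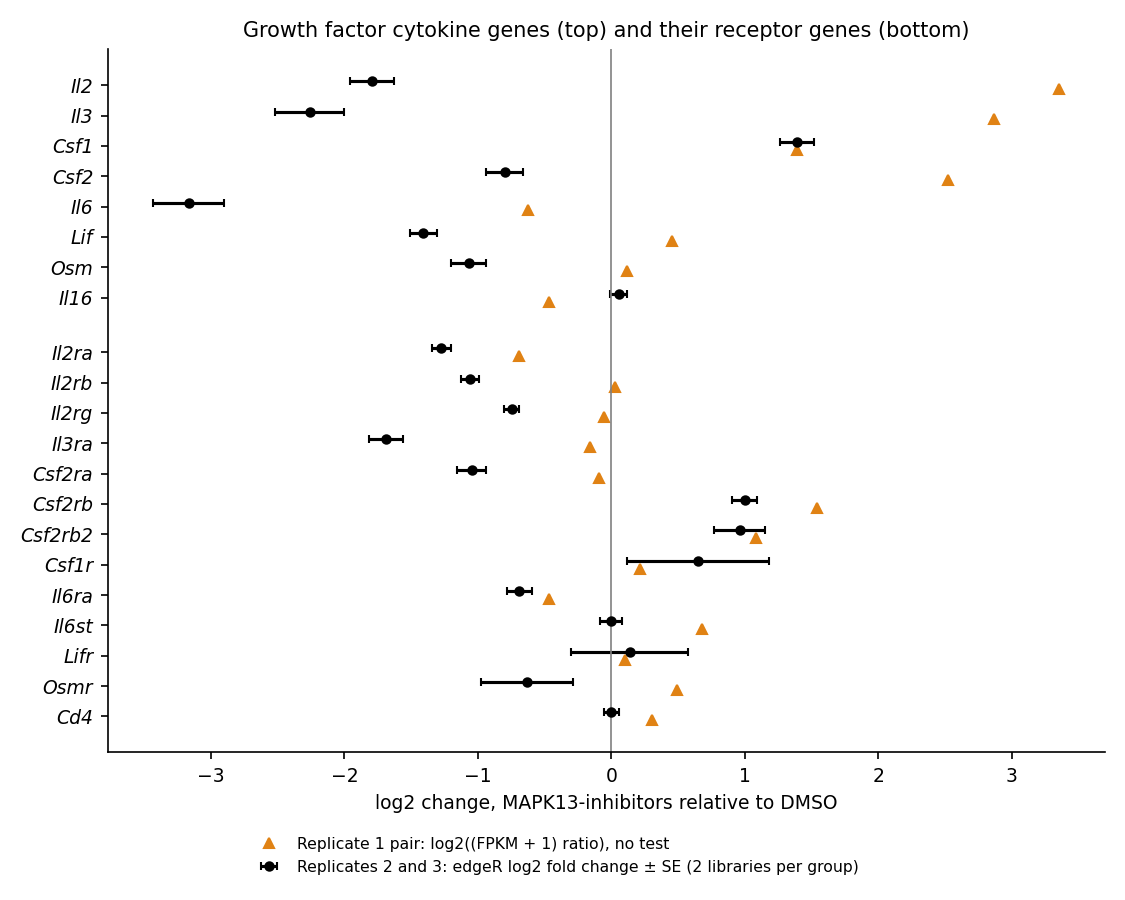
Log2 change with MAPK13-inhibitors relative to DMSO for the 8 cytokine genes and 13 receptor genes. Black points are edgeR log2 fold changes of replicates 2 and 3 with SE bars, and orange triangles are log2 ratios of FPKM + 1 in the replicate 1 pair, which have no error. For *Il2* these values were -1.80 and 3.36, and for *Csf1* they were 1.39 and 1.39.

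Genes that respond to STAT5, the transcription factor activated by IL-2, IL-3 and GM-CSF, were mostly lower. Of 18 such genes tested, 15 were lower, 1 was higher and 2 did not pass, with a median log2 fold change of -0.99, beside 32.3% lower and 31.5% higher among all genes tested. *Il2ra* is counted among the receptors too, *Lta* among the effector cytokines and *Prdm1* among the repressors of *Il2*, so these lists are not separate. Of the 7 T cell markers, 6 were lower as well, and their part in these levels was not tested. The higher gene was *Bcl2l1*, named after its values were seen, and the number of higher genes was 0 to 2 under the alternatives. *Lta*, a TNF family cytokine gene, went from 466.3 and 450.9 CPM with DMSO to 69.1 and 77.4 CPM with the inhibitor, and *Bcl2*, a survival gene, from 429.1 and 441.0 CPM to 151.5 and 165.2 CPM. *Tnfrsf4*, which encodes the costimulatory receptor OX40, went from 276.8 and 270.8 CPM to 72.1 and 90.0 CPM. In these genes all treated libraries were below all controls. They were also lower in the replicate 1 pair, at 238.3 FPKM in the DMSO library and 202.2 FPKM in the treated library for *Lta*, 53.2 and 24.5 FPKM for *Bcl2* and 321.3 and 265.9 FPKM for *Tnfrsf4*. The median log2 ratio of the 18 genes in the replicate 1 pair was 0.22, with 14 above 0 and 4 below. Over the 11510 genes with at least 1 FPKM there, the median was 0.079 and 6515 were above -0.0015.

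Of 18 transcriptional activators of *Il2* and *Csf2*, 8 were lower, 5 were higher and 5 did not pass, with a median log2 fold change of -0.14, beside 32.3% lower and 31.5% higher over all genes. The AP-1 genes moved both ways, with *Jund* at 471.2 and 475.7 CPM with DMSO and 151.6 and 181.1 CPM with the inhibitor. *Jun* went from 144.3 and 149.7 CPM with DMSO to 290.7 and 277.7 CPM with the inhibitor, and from 8.52 to 44.3 FPKM in the replicate 1 pair. The NF-kB genes also moved both ways, with log2 fold changes of -1.46 ± 0.085 for *Relb*, -1.19 ± 0.070 for *Nfkb2* and 0.59 ± 0.069 for *Rel* (SE). The pair had *Jund* at 89.9 FPKM in the DMSO library and 99.3 FPKM in the treated library, *Relb* at 53.3 and 51.6 FPKM, *Nfkb2* at 152.6 and 273.8 FPKM, and *Rel* at 11.8 and 26.2 FPKM, so that *Jund* and *Nfkb2* were not lower there. The median log2 ratio of the 18 genes in the pair was 0.35, with 12 above 0 and 6 below. Over the 11510 genes with at least 1 FPKM there, the median was 0.079 and 6515 were above -0.0015.

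Of 11 transcriptional repressors of *Il2*, 5 were lower, 2 were higher and 4 did not pass, with a median of -0.07, where 32.3% of all genes were lower and 31.5% higher. *Egr3*, a factor induced by antigen receptor signals, went from 153.9 and 144.4 CPM with DMSO to 25.9 and 34.4 CPM with the inhibitor. *Foxp3*, the factor of regulatory T cells, went from 58.4 and 60.6 CPM to 20.3 and 23.8 CPM. Neither was lower in the replicate 1 pair, with *Egr3* at 9.63 FPKM in the DMSO library and 12.2 FPKM in the treated library and *Foxp3* at 13.6 and 14.6 FPKM. The median log2 ratio of the 11 genes in the pair was 0.31, with 8 above 0 and 3 below. Over the 11510 genes with at least 1 FPKM there, the median was 0.079 and 6515 were above -0.0015. Of the 14 regulators of cytokine mRNA decay, 2 were lower, 9 were higher and 3 did not pass, with a median of 0.26, against the same shares of all genes. *Zfp36*, which encodes tristetraprolin, a protein that binds AU-rich elements, was at 28.5 and 29.3 CPM with DMSO and at 59.9 and 58.8 CPM with the inhibitor. Its log2 fold change was 1.04 ± 0.075 (SE, edgeR adjusted p = 1.25e-06), and the pair had 11.1 and 22.8 FPKM. *Rc3h1*, which encodes Roquin-1, had a log2 fold change of 0.96 ± 0.067 (SE), and the pair had 6.36 and 8.99 FPKM. The median log2 ratio of the 14 genes in the pair was 0.050, with 7 above 0 and 7 below, beside the all-gene median of 0.079.

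Of the 8 genes, 4 lie in 2 neighbouring pairs on chromosome 11. *Csf2* and *Il3* lie 15635 bp apart and *Osm* and *Lif* 16530 bp apart, with 0 protein-coding genes between the members of either pair in GENCODE.

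**Figure D3:**
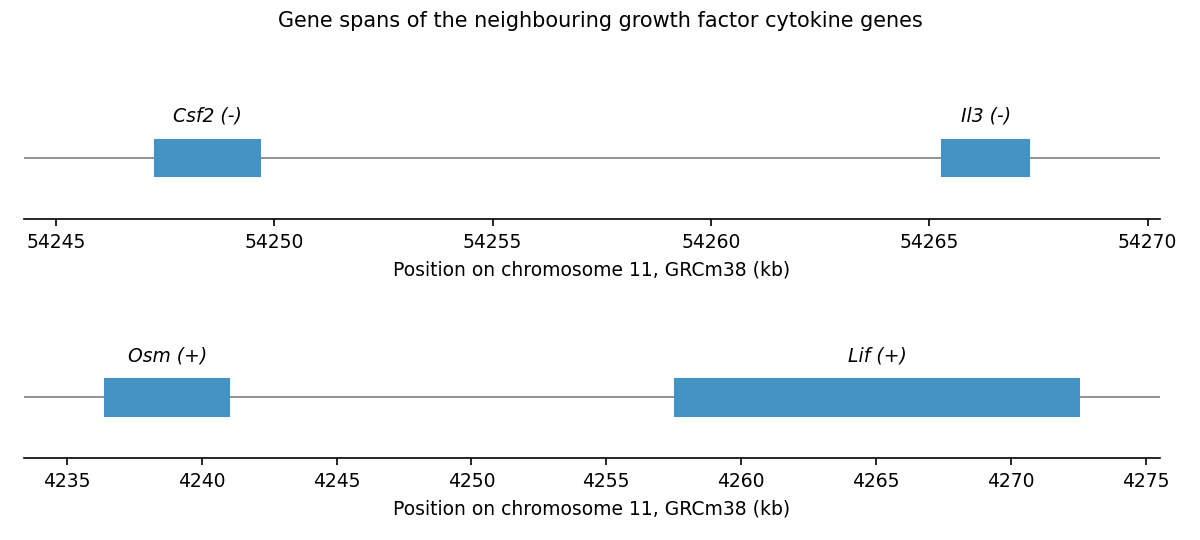
Map of the gene spans of *Csf2* and *Il3* (top) and of *Osm* and *Lif* (bottom) on chromosome 11 (GRCm38, positions in kb, strand in brackets). *Csf2* and *Il3* are 15635 bp apart and *Osm* and *Lif* are 16530 bp apart, each pair on 1 strand.

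AU-rich elements in 3′ UTRs, built from the pentamer ATTTA, are a known feature of short-lived cytokine mRNAs. The pentamer was counted in the 3′ UTR of a transcript of each gene, a search chosen after the values were seen, over 21022 coding genes with a median of 1. *Csf2* had 9 copies, *Il2* and *Lif* had 7 each, *Il6* and *Osm* had 6 each, *Csf1* had 4, *Il3* had 1 and *Il16* had 0. The annotated UTR of *Il3* was the shortest at 101 bases, beside 317 for *Csf2* and 3180 for *Lif*, the longest. The low count of *Il3* thus rests on a short stretch and does not show that its mRNA lacks the element. As many copies as in *Csf2* were found in 7.67% of the genes, as many as in *Il2* in 12.1%, and the count depends on the length of the UTR. The 30-base stretches with the most copies are shown for the 3 genes with at least 3 copies in a stretch, with ATTTA in capitals. They lie at chr3:37121040-37121069 (minus strand) for *Il2*, chr11:54247329-54247358 (minus strand) for *Csf2* and chr11:4272414-4272443 (plus strand) for *Lif* (GRCm38).
Il2 3′ UTR: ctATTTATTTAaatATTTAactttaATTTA
Csf2 3′ UTR: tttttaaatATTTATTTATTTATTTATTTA
Lif 3′ UTR: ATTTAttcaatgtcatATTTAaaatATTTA

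Promoter windows of 300 bases from RefSeq (GRCm38.p6) were matched for 7 of the 8 genes, with no entry used for *Osm*. Motifs were searched on both strands, and 32851 such windows gave the background. AP-1 was searched as TGANTCA, found in 7.81% of all windows. The NFAT core was searched as GGAAA, found in 61.3%. NF-kB was searched as GGNNNTTCC, found in 18.5% and able to overlap the NFAT core. STAT was searched as TTCNNNGAA, found in 8.30%. TCF/LEF was searched as CTTTGAT, found in 3.73%. The TATA box was searched as TATAAA, found in 13.6%. The NFAT core was found in every matched gene. The promoters of the 4 called genes with the largest changes are printed with matches in capitals, 5′ to 3′ on the gene's strand. They span chr5:30012864-30013163 (plus) for *Il6*, chr11:54267230-54267529 (minus) for *Il3*, chr3:37125905-37126204 (minus) for *Il2* and chr11:4257318-4257617 (plus) for *Lif*. The *Il6* window held an AP-1 match, 3 NFAT cores and an NF-kB match, and *Il2* held 2 NFAT cores and a TATA box. *Il3* held 1 NFAT core and 1 NF-kB match, and *Lif* held 1 AP-1 match and 1 NFAT core. A match describes these letters in this window and no binding was measured here.
Il6 promoter: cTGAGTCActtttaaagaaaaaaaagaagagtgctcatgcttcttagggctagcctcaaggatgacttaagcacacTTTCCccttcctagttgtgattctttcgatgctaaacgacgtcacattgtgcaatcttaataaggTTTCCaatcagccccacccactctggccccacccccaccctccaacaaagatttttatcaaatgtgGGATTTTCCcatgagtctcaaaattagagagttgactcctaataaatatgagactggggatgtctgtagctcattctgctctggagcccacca
Il3 promoter: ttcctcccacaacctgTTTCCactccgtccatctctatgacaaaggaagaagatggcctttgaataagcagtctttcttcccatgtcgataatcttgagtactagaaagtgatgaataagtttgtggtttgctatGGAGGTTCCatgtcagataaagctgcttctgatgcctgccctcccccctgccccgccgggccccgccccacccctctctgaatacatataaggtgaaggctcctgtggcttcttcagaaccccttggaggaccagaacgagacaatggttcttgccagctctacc
Il2 promoter: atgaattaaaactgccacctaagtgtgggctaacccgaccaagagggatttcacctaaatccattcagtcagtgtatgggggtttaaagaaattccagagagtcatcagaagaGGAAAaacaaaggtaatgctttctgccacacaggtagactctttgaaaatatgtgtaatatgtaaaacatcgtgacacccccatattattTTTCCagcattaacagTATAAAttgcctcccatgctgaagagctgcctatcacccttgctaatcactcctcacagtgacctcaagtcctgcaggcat
Lif promoter: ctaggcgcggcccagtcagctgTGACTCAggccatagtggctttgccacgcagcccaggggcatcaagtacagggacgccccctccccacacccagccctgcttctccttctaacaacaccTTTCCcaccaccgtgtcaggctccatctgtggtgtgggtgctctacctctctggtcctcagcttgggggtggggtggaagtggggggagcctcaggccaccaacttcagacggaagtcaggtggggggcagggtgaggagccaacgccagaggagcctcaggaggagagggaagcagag

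The genes whose values over the 4 libraries of the count table were most like those of each cytokine were found by the Euclidean distance between centred log2 CPM, among 12156 genes. The nearest were *Atp8b4* and *Armcx4* for *Il2* (distances of 0.103 and 0.120), *Spint1* and *Rad51c* for *Il3*, and *Cep44* and *Rbck1* for *Csf2*. *P2rx3* and *Il4i1* were nearest to *Il6*, *Cspg5* and *Ints6* to *Lif*, *Jtb* and *Cep131* to *Osm*, *Cacna1h* and *Hlf* to *Csf1*, and *Ipo5* and *Ehd2* to *Il16*. These distances rest on 4 libraries, and no shared control was tested.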

How the data were processed

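Polyadenylated RNA of mouse splenic CD4+ T cells was sequenced in 3 libraries per group. For replicates 2 and 3 the authors deposited raw counts per gene, for which the submitters' processing notes name fastp 0.21.0, HISAT2 2.1.0, StringTie 2.1.5, DESeq2 1.30.1 and the build mm10. For replicate 1 the authors deposited normalized values, taken as FPKM (a unit inferred from the values), for which the notes name FastQC and HISAT2. The annotation and the counting step are not given in the sources used here. 0 columns of values were left unused.

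The count table was fitted with edgeR 4.0.16 in R 4.3.3 (filterByExpr with a minimum count of 10 and a minimum total of 15, TMM, quasi-likelihood test, Benjamini-Hochberg over 16269 genes). The replicate 1 pair was given as log2 ratios with a pseudocount of 1. A count of 3, the limit that a count of 0 allows, was worth 0.0845 to 0.116 CPM and covers counting error only. The common biological coefficient of variation was 0.0659. The fit was tested on simulated data. Within a group, replicates were further apart than sampling noise (mean chi-square per gene of 2.94 with DMSO and 8.82 with the inhibitor). The medians were 0.98 with DMSO and 1.92 with the inhibitor, and sampling noise alone also gives a median below the mean. Marker sums used CPM of library totals. Levels per kilobase used merged exon lengths of GENCODE M21 (GRCm38), the build of the labels. Named genes were all 8 cytokine genes, all their receptors, and from each other list up to 4 genes with the smallest p-values, besides *Bcl2l1*, the only higher gene of its list, and *Rel*, both named after their values were seen. One single-gene list and one cell marker are not reported here by name. The cytokine genes and all lists were chosen with earlier results of these data known. The alternatives were RLE, upper-quartile and total-count scaling, 2 other filters, DESeq2 1.42.0, a replicate block, a threshold of 0.01, each library left out, a pseudocount of 0.1, a minimum of 1 FPKM, and, added after seeing the data, equal sums in the replicate 1 pair.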

Additional observations from a re-analysis of the deposited data

Results flagged for a closer look

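For 6 of the 8 growth factor cytokine genes, the count table and the replicate 1 pair had changes of opposite sign. Of the 7 genes called in the count table these were 5, compared with 33.8% of all 10138 called genes above 0 in the pair. The difference between the library preparations was not tested. The log2 ratios of the replicate 1 pair were 3.36 for *Il2*, 2.86 for *Il3*, 2.52 for *Csf2*, 0.46 for *Lif* and 0.12 for *Osm*, all of which were lower with the inhibitor in the count table. For *Il16*, which did not pass the test in the count table (0.056, and -0.0066 without MAPK13-inhibitors replicate 3), the ratio was -0.47. Among the receptors that passed the test, *Il2rb* moved in opposite directions, with a ratio of 0.029 in the pair. The ratios of *Osm* and *Il2rb* are small, and without replicates their error is unknown.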

How the results depend on the processing

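The 6 lower calls and the higher call of *Csf1* held under all 11 alternative fits of the count table, with log2 fold changes between -2.13 and -1.53 for *Il2*, -2.42 and -2.12 for *Il3*, -0.94 and -0.67 for *Csf2*, -3.34 and -2.99 for *Il6*, -1.61 and -1.24 for *Lif*, -1.17 and -0.94 for *Osm*, and 1.19 and 1.57 for *Csf1*. Scaling by library totals moved the number of higher cytokine genes to 2 by adding *Il16* (0.18), since it shifts the median of all genes by 0.13. *Il16* ranged from -0.0066 to 0.11 when a library was left out. A lone library was then assumed to vary like the others. Values near 0 changed sign for *Il6st* (0.0088 with RLE, 0.075 with upper-quartile scaling, 0.12 with totals, 0.040 with at least 10 counts in every library, 0.0088 with DESeq2, and -0.082 to 0.053 without single libraries), for *Cd4* (0.013, 0.080, 0.12, 0.044 and 0.013 under the same settings, and -0.050 to 0.041 without single libraries) and for *Lifr* (-0.51 to 0.57 without single libraries). The median of the transcriptional repressors of *Il2* also changed sign, to 0.011 with upper-quartile scaling and 0.056 with totals. The median of the activators ranged from -0.24 without MAPK13-inhibitors replicate 3 to -0.016 with totals, and that of the other growth factor cytokines from -0.51 to -0.23. The cause was not tested. With a pseudocount of 0.1, the log2 ratio of *Il3* in the replicate 1 pair was 4.45, and the numbers of genes past a 2-fold ratio were 2657 higher and 540 lower, because low values weigh more. The replicate numbers did not pair the samples (correlation of deviations -0.0064), and with a replicate block 5384 genes were lower and 5261 higher, with the same counts of 6 and 1 cytokine genes. *Csf1r*, *Lifr* and *Osmr* had at most 38 counts per library.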

Other observations

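Other growth factor cytokine genes and effector cytokine genes were given for context. Of 13 tested genes among 19 other growth factor cytokines, 5 were lower, 3 were higher and 5 did not pass, with a median log2 fold change of -0.41, beside 32.3% lower and 31.5% higher among all genes tested. Of the 8 with at least 1 FPKM in the replicate 1 pair, 6 had a log2 ratio above 0 and 2 below, with a median of 0.56. Over all 11510 genes with at least 1 FPKM there, the median was 0.079 and 6515 were above -0.0015. *Il4*, a growth factor of B cells and type 2 helper cells, had 240 and 229 counts with DMSO and 11 and 12 counts with the inhibitor, and was also lower in the replicate 1 pair, at 28.9 and 13.1 FPKM. *Il15*, a growth factor of memory T cells and NK cells, had 31 and 41 counts with DMSO and 380 and 310 counts with the inhibitor, and was also higher in the pair, at 0.571 and 3.76 FPKM. *Flt3l* went from 45.4 and 48.2 CPM to 12.6 and 12.1 CPM, and *Ebi3* from 76.1 and 77.8 CPM to 133.4 and 141.6 CPM. Of 13 effector cytokine genes, 9 were lower, 1 was higher and 3 did not pass, with a median of -1.03, against the same shares of all genes. *Il4*, *Il5*, *Il9* and *Il21* count in both lists. Of the 12 with at least 1 FPKM in the pair, 9 were above 0 and 3 below, with a median of 0.87, beside the same all-gene median of 0.079. *Il13* had 735 and 869 counts with DMSO and 36 and 49 counts with the inhibitor, whereas in the replicate 1 pair it had 16.5 and 39.9 FPKM. *Il22* had 96 and 110 counts with DMSO and 17 and 17 counts with the inhibitor, and 2.01 and 56.1 FPKM in the pair. As for *Il2* and *Il3*, these genes moved in opposite directions in the library preparations, which was not tested.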
